A study of Arabidopsis thaliana with 109 samples.

Results

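The pif457 mutant of Arabidopsis thaliana, sampled after 30 min of low red to far-red light and in steady white light, accounts for 4 of the 109 samples of the series and for 4 of its 29 RNA-seq libraries. The libraries are defined by their labels, which give the genotype pif457 and the light treatment, with 2 libraries in each light. The other groups used here are the pif457 line that carries PIF7-4xMYC (labelled pif457_PIF7:PIF7:4xMYC) after 30 min of low R:FR and in white light, with 3 libraries each in a separate table, and wild type (Col-0) after 30 min and in white light, with 2 libraries each in the table of pif457. All of these were seedlings raised in light on Linsmaier and Skoog medium, and total RNA of the seedling was sequenced. The fit of the separate table also took in libraries of the PIF7-4xMYC line after shorter times of low R:FR, which are not compared here. The label pif457 stands for loss of PIF4, PIF5 and PIF7 together, and it names no allele. The sources used here give neither the age of the seedlings nor the hour of harvest, so a difference in hour between the light groups cannot be told apart from the light. Separate cultures for the replicates are not stated in the labels, and the p-values below measure the spread between these libraries, which may be technical.

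Light filtered through or reflected by leaves is rich in far-red, and a low ratio of red to far-red light is the signal by which plants detect neighbours. Low R:FR turns phytochrome B to its inactive form, which frees the phytochrome-interacting factors (PIFs), a family of bHLH transcription factors that bind the G-box CACGTG. PIF7, PIF4 and PIF5 are the members best known for starting shade avoidance, in which homeodomain-leucine zipper regulators such as ATHB2 and auxin synthesis genes of the YUCCA family are switched on within minutes and the hypocotyl elongates. The pif457 mutant is the background in which the light treatment can be followed without these 3 factors, and PIF1, PIF3 and UNE10 (also called PIF8) are relatives that it retains.

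The transcripts of the 3 mutated genes were checked first. PIF7 had 0.35 and 1.47 TPM (transcript abundance scaled to a fixed total per library) in pif457 after 30 min and 1.24 and 0.84 TPM in pif457 in white light, against 21.6 and 23.4 TPM in wild type after 30 min and 28.0 and 25.4 TPM in wild type in white light. PIF5 had 1.60 and 2.45 TPM in pif457 after 30 min and 2.71 and 4.03 TPM in pif457 in white light, against 19.2 and 21.3 TPM and 33.2 and 42.7 TPM in wild type. PIF4 transcript was reduced less, with 3.12 and 6.36 TPM in pif457 after 30 min and 11.9 and 11.3 TPM in pif457 in white light, against 13.7 and 14.8 TPM and 32.5 and 47.1 TPM in wild type. All 4 pif457 libraries lay below all 4 wild-type libraries for these genes, as their label says. A transcript level does not measure the activity of a mutant allele. The relatives were present in pif457: UNE10 stood at 42.4 and 46.7 TPM after 30 min and at 56.7 and 56.2 TPM in white light, PIF1 at 11.5 and 19.1 TPM and at 24.5 and 22.8 TPM, and PIF3 at 5.02 and 10.7 TPM and at 9.45 and 9.64 TPM, and none of the 3 passed the test in pif457.

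One pif457 library stood apart. Nuclear rRNA and organellar genes took 23.1% of TPM in pif457 30 min replicate 1, against 5.78% in replicate 2 of that group, 4.09% and 5.34% in pif457 in white light, and 4.13% to 12.0% in wild type. Among the 14441 genes of mean TPM of at least 5, the median gene was lower after 30 min in pif457 by 0.17 on the log2 scale, and higher in wild type by 0.05. TPM sum to a fixed total in each library, so a larger share of some genes lowers the others, and changes are given on deposited TPM and again after the median gene of every library was set to 1 level (centring). Leaf and cotyledon markers were high in all 8 libraries, with sums of 52201 to 74313 TPM over 9 genes, and none of them was at 0. Root markers, 13 genes with none at 0 in any library, summed to 43.4 and 75.1 TPM in pif457 after 30 min and 75.1 and 83.2 TPM in pif457 in white light, against 168.8 and 132.2 TPM and 102.5 and 77.6 TPM in wild type. In whole seedlings, fewer cells of a type and less RNA per cell cannot be told apart.

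**Figure D1:**
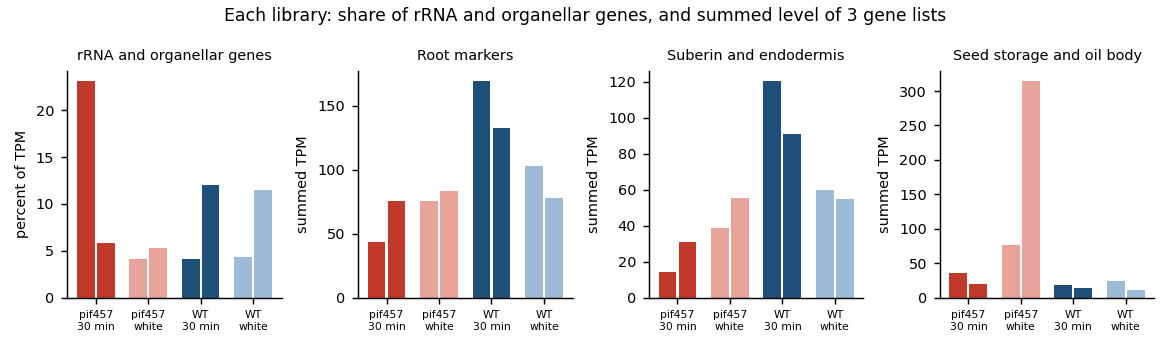
Share of TPM in nuclear rRNA and organellar genes (percent, left) and summed TPM of the root marker, suberin and endodermis, and seed storage and oil body lists in each of the 8 libraries, 1 bar per library, replicate 1 left of replicate 2. Replicate 1 of pif457 after 30 min has the highest rRNA and organellar share (23.1%), and replicate 2 of pif457 in white light has the highest seed storage sum (313.9 TPM).

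Few genes passed the test in pif457. With limma on log2(TPM + 1) and Benjamini-Hochberg adjustment at 0.05, 3 of 24384 genes passed (0.0123%), 2 higher (0.0082%) and 1 lower (0.0041%) after 30 min of low R:FR. In wild type, with as many libraries, 29 genes passed (0.119%), all higher. The PIF7-4xMYC line, with 3 libraries a group and a separate fit, had 1188 of 24589 (4.83%), of which 934 were higher (3.8%) and 254 lower (1.03%). That fit also drew its spread from the groups of shorter low R:FR, and with the compared groups alone 423 genes passed. At an unadjusted p under 0.05 there were 2293 genes in pif457, 248 higher and 2045 lower, and 2128 in wild type, 1719 higher and 409 lower. After centring, 174 genes passed in pif457 (0.714%), 85 higher (0.349%) and 89 lower (0.365%), so that the split between directions depends on the scaling. Centred, the wild-type count was 378, 250 higher and 128 lower, and that of the PIF7-4xMYC line 1155, 563 higher and 592 lower. Without pif457 30 min replicate 2, which leaves the library with the large rRNA share alone in its group, 5511 genes passed, 5435 of them lower. Without replicate 1 there were 15, and without pif457 white light replicate 1 or 2 there were 22 and 25. In wild type 19 genes passed without white light replicate 2, 9 of them higher. Genes short of the threshold may still have responded.

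The 3 genes that passed are all non-coding. AT3G41761, a non-coding RNA that RefSeq places within AT3G41762 beside rRNA genes, had 10.8 and 6.35 TPM in pif457 after 30 min and 0 in both pif457 white light libraries, against 2.57 and 3.08 TPM and 5.13 and 6.95 TPM in wild type. It rose in pif457 by 3.22 on log2(TPM + 1) (SE 0.27, limma adjusted p = 0.0187), and without pif457 white light replicate 1 or 2 the change of 3.22 no longer passed, nor did it with a pseudocount of 5 (1.42). AT1G18382, a long non-coding RNA, rose to 0.93 and 1.00 TPM in pif457 after 30 min, against 0 in both white light libraries (0.97, SE 0.07, limma adjusted p = 0.00921). MIR848, the gene of a microRNA precursor, fell to 0 in both pif457 libraries after 30 min, against 1.15 and 0.95 TPM in pif457 in white light, and it was at 0 in all 4 wild-type libraries (-1.03, SE 0.07, limma adjusted p = 0.00921). Without pif457 30 min replicate 1 the change of MIR848, -1.03, no longer passed, nor did it after centring (-0.84). With no expression trend in limma, none of the 3 genes passed. AT1G18382 and MIR848 are near 1 TPM at most, and values listed at 0 may lie below detection.

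A rule of size was added after the few calls had been seen: a change of at least 2-fold on log2(TPM + 1), no overlap between the libraries of the groups, and a mean of at least 5 TPM in the higher group. By this rule 30 of 14587 genes were higher in pif457 after 30 min (0.206%) and 142 were lower (0.973%), against 236 higher (1.58%) and 38 lower (0.254%) of 14982 in wild type. Of the 30 higher in pif457, 14 were rRNA or organellar genes. After centring the counts were 50 higher and 86 lower. Without pif457 30 min replicate 1 there were 49 higher, without replicate 2 there were 403 lower, and without pif457 white light replicate 1 there were 229 lower. Of the 30, 3 were also higher by this rule in wild type, and 9 of the 142 were also lower there, while 20 of the 142 were higher in wild type by the same rule. Across the 14441 genes of mean TPM of at least 5, Pearson's r between the pif457 and wild-type log2 changes was -0.01, a description over genes, which are not independent replicates.

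**Figure D2:**
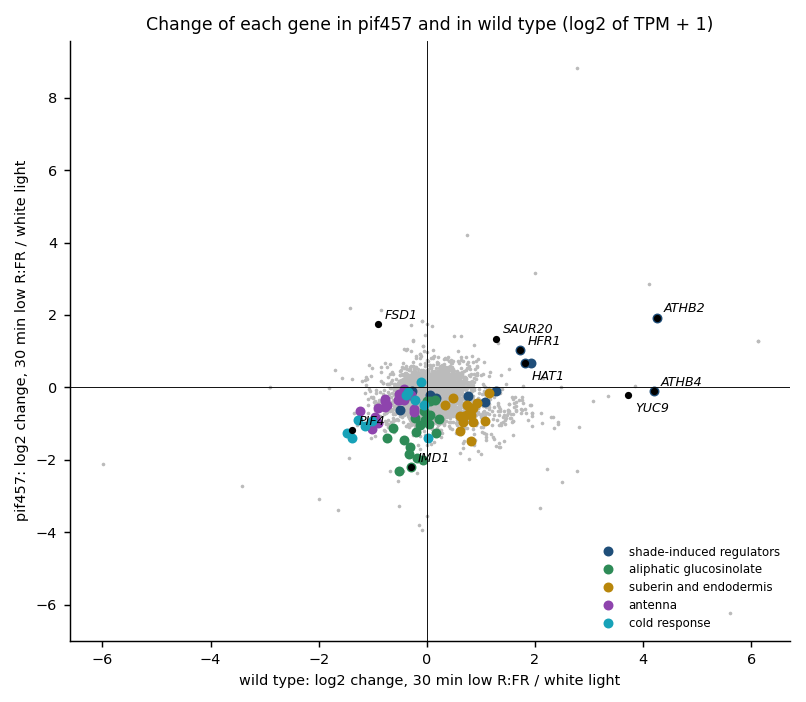
Log2 change after 30 min of low R:FR in wild type (x axis) and in pif457 (y axis), both on log2(TPM + 1). Genes of mean TPM of at least 5 are grey, all members of 5 gene lists are coloured, and the genes named in the plot are black. ATHB2 lies far to the right at 1.92 in pif457 and 4.25 in wild type, while ATHB4 (4.19 in wild type) and YUC9 (3.72) also lie far to the right but near 0 in pif457, and FSD1 lies above 0 in pif457 and below 0 in wild type.

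The regulators that mark early shade avoidance were nearly flat in pif457 as a list, with exceptions led by ATHB2. Of 12 shade-induced regulators, 0 passed in pif457 on deposited TPM, 11 passed as raised in the PIF7-4xMYC line and 6 in wild type. Their median log2 change was -0.10 in pif457, beside -0.14 over all genes tested, and 1.86 in the PIF7-4xMYC line and 1.18 in wild type. After centring, the median was 0.09 and 3 of the 12 passed as raised in pif457: ATHB2, HAT1 and HFR1.

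ATHB2 (AT4G16780), the homeodomain-leucine zipper gene that is a standard marker of shade, had 18.5 and 17.35 TPM in pif457 after 30 min and 3.69 and 4.33 TPM in pif457 in white light, against 149 and 133 TPM in wild type after 30 min and 5.41 and 7.65 TPM in wild type in white light. In both genotypes the 30 min libraries lay above the white light libraries with no overlap, but the pif457 libraries after 30 min reached a small share of the wild-type level. The log2 change in pif457 was 1.92 (SE 0.19, limma adjusted p = 0.0562) on deposited TPM and 2.11 with centred libraries (limma adjusted p = 0.00505), and over all alternatives the adjusted p ran between 1.08e-12 and 0.188. In the PIF7-4xMYC line ATHB2 stood at 288, 288 and 303 TPM after 30 min and at 5.42, 4.41 and 5.29 TPM in white light.

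Its relative HAT1 had 31.2 and 39.3 TPM in pif457 after 30 min and 20.9 and 22.9 TPM in white light, against 88.0 and 85.9 TPM and 22.0 and 26.4 TPM in wild type. HFR1, an atypical bHLH protein that holds PIFs in check, had 4.08 and 4.97 TPM in pif457 after 30 min and 1.55 and 1.84 TPM in white light, against 23.2 and 20.5 TPM and 5.23 and 6.72 TPM in wild type. For both genes the pif457 groups did not overlap, and the pif457 level after 30 min of HFR1 lay below the wild-type level in white light. HAT1 differed by 0.66 (SE 0.16, limma adjusted p = 0.293) on deposited TPM and 0.85 with centred libraries (limma adjusted p = 0.0226), with a range of 0.0226 to 0.83 over alternatives. The values for HFR1 were 1.03 (SE 0.22, limma adjusted p = 0.248) and 1.23 with centred libraries (limma adjusted p = 0.0164), with a range of 0.00632 to 0.753. PIL1, a bHLH gene that responds early to shade, was at 0.51 and 1.21 TPM in pif457 after 30 min and at 0.17 and 0.11 TPM in white light, against 5.34 and 4.89 TPM and 0.31 and 0.98 TPM in wild type, and it did not pass in pif457 (limma adjusted p = 0.425).

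Other homeodomain-leucine zipper genes of the same subfamily were not higher in pif457 after 30 min. ATHB4 (AT2G44910) had 3.89 and 6.22 TPM in pif457 after 30 min and 5.02 and 5.72 TPM in white light, against 87.1 and 77.2 TPM and 3.48 and 3.63 TPM in wild type. HAT3 had 16.2 and 17.1 TPM in pif457 after 30 min and 17.64 and 17.9 TPM in white light, against 41.5 and 35.8 TPM and 15.4 and 15.1 TPM in wild type. HAT2 had 8.04 and 11.9 TPM in pif457 after 30 min and 13.2 and 13.5 TPM in white light, against 36.3 and 29.8 TPM and 13.2 and 17.2 TPM in wild type. In wild type ATHB4 and HAT3 rose (4.19, limma adjusted p = 0.000714, and 1.28, limma adjusted p = 0.0417), while in pif457 the values were -0.10 and -0.09. The call for HAT3 in wild type was lost without each of the 4 wild-type libraries (1.18 to 1.39), with the compared groups alone and with no expression trend (1.28 in both). The wild-type calls for PIL1, HFR1 and HAT1 were lost in all of these settings too. Without a library their changes were 1.63 to 2.22, 1.56 to 1.87 and 1.68 to 1.93. That for YUC5 was lost with the compared groups alone (2.65). PAR1, FHL and CKX5 were also close to the median gene in pif457, with log2 changes of -0.23, -0.20 and -0.29, none of which passed.

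**Figure D3:**
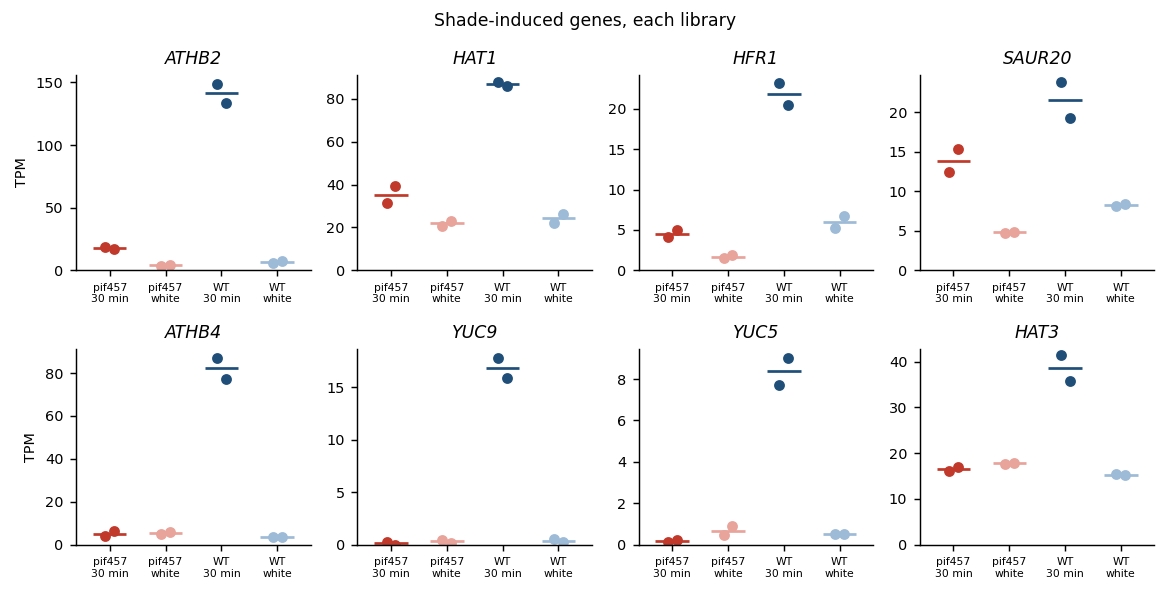
TPM of 8 shade-responsive genes in each library (points) with the mean of the 2 libraries of each group (lines), for pif457 and wild type (WT) after 30 min of low R:FR and in white light. In pif457 the points of ATHB2, HAT1, HFR1 and SAUR20 after 30 min lie above those in white light, and those of ATHB4, YUC9, YUC5 and HAT3 do not.

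The G-boxes under PIF7 binding events are shown for the genes listed below, because the G-box is the element that PIFs bind. The genes listed lie beside events in the PIF7-4xMYC line. HFR1, PIL1 and HAT3 are not among them, and no event was assigned to these as the nearest gene within 3 kb. The events come from the authors' deposited lists, made by GEM on PIF7-4xMYC chromatin immunoprecipitates pooled by the authors. The k-mers below are from the list described as low R:FR at ZT4 against white light. The sample numbers in that description go against the sample titles, so which libraries the list compares is uncertain, and only its positions and k-mers are used. They are read on the TAIR10 build as the caller gives them, with the G-box in capitals. The G-box is its own reverse complement, and 79.7% of the 998 events of that list carry CACGTG in the k-mer, so its presence at an event is usual.
ATHB4, chromosome 2, 18521583: gttCACGTGggaagt
HAT1, chromosome 4, 9738218: tgtCACGTGacaa
HAT2, chromosome 5, 19219463: gaaCACGTGggaca
YUC5, chromosome 5, 17651771: atcCACGTGgttg
YUC8, chromosome 4, 14192086: tctcCACGTGgctt
YUC9, chromosome 1, 1103365: cCACGTGgaga

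None of these 6 genes passed in pif457 on deposited TPM, and HAT1 passed as raised after centring. Whether their responses in pif457 differ from one another was not tested. ATHB2 had an event in the 30 min list, at chromosome 4, position 9450468 inside its span, with the k-mer CACGTG alone, and none within 3 kb in the 2 lists at ZT4. None of the 3 genes that passed in pif457 is protein-coding, so 0 of them could be assigned an event. In the 30 min list of 1408 events, 1 of 15 protein-coding genes at least 2-fold higher in pif457 was the nearest gene to an event within 3 kb (6.67%), as were 9 of the 136 at least 2-fold lower (6.62%). With a mean TPM of 5 or more, 788 of 14136 protein-coding genes had an event (5.57%), as had 1079 of all 22828 tested (4.73%). By the same rule of size, 24 of 234 protein-coding genes higher in wild type had an event (10.3%). Of the 27 protein-coding genes that passed as raised in wild type, 7 had an event (25.9%). That set was chosen by the test, and 19 of its 29 genes of any type were below 5 TPM in both groups. Within 1 kb these wild-type shares were 5.98% and 18.5%, against 4.53% of the protein-coding genes at 5 TPM or more.

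Auxin synthesis genes were not raised in pif457. Of 13 tested, 0 passed in pif457 on either scale, 4 passed as raised in the PIF7-4xMYC line and 2 in wild type. YUCCA enzymes make indole-3-acetic acid, the main auxin. YUC9 (AT1G04180) had 0.24 and 0 TPM in pif457 after 30 min and 0.41 and 0.19 TPM in white light, against 17.8 and 15.9 TPM and 0.50 and 0.22 TPM in wild type. YUC5 (AT5G43890) had 0.14 and 0.20 TPM in pif457 after 30 min and 0.46 and 0.88 TPM in white light, against 7.73 and 9.02 TPM and 0.50 and 0.49 TPM in wild type. YUC8 had 0.43 and 0.60 TPM in pif457 after 30 min and 0.26 and 0.38 TPM in white light, against 5.68 and 5.99 TPM and 1.14 and 2.13 TPM in wild type. In both lights all 3 were below 1 TPM in pif457. CYP79B2, which makes indole-3-acetaldoxime from tryptophan, had 12.7 and 16.0 TPM in pif457 after 30 min and 27.5 and 28.0 TPM in white light, and it did not pass (-0.92, limma adjusted p = 0.276).

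The difference between the genotypes was tested directly. The interaction, the change in pif457 minus the change in wild type, passed for 10 of 24384 genes (0.041%), 2 positive (0.0082%) and 8 negative (0.0328%). Without pif457 30 min replicate 2 the count was 3145, without pif457 white light replicate 1 or 2 it was 21 and 16, and without wild type 30 min replicate 2 it was 29. Leaving out a library, between 1 and 10 of the 10 genes were called again, with the fewest without wild type white light replicate 2. ATHB4 (-4.29, SE 0.33), YUC9 (-3.93, SE 0.26) and YUC5 (-3.15, SE 0.23) each had a limma adjusted p of 0.00883. YUC9 passed without each library in turn, but its call was lost with a pseudocount of 0.1 (-6.33). The call for ATHB4 was lost without pif457 white light replicate 2 (-4.21), wild type 30 min replicate 1 (-4.20) or 2 (-4.37), or wild type white light replicate 1 (-4.26) or 2 (-4.31). The call for YUC5 was lost without pif457 30 min replicate 1 (-3.11) or wild type white light replicate 1 (-3.15) or 2 (-3.14). ATHB2 differed by -2.33 (SE 0.27, limma adjusted p = 0.0528) and by -2.08 with centred libraries (limma adjusted p = 0.0178), with a range of 1.54e-09 to 0.29 over alternatives.

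The genes that were higher in wild type after 30 min were mostly not higher in pif457. Of the 29 raised in wild type, 9 were higher and 15 lower in pif457 and 5 were at 0 in all 4 pif457 libraries. Their median log2 changes were -0.04 in pif457 (0.16 after centring) and 1.28 in wild type. ATHB2 was the 1 that was at least 2-fold higher in pif457. Among these 29, 19 were below 5 TPM in both wild-type groups, so their signs and median in pif457 describe mostly low genes. Most of the 29 were not called again when any 1 wild-type library was left out. Of the 236 at least 2-fold higher in wild type, 23 were higher and 213 lower in pif457, 3 of them at least 2-fold higher and 20 at least 2-fold lower. Their median was -0.61 in pif457 (-0.42 after centring) and 1.35 in wild type, and over all genes tested 5403 were higher and 18054 lower in pif457. The 236 included 4 of the 13 root markers, against 1.58% of all eligible genes. The root marker sums given above were higher after 30 min in wild type and not in pif457, and the part of root content was not tested. Of the 38 at least 2-fold lower in wild type, 26 were lower and 12 higher in pif457, with medians of -0.44 in pif457 (-0.25 after centring) and -1.14 in wild type.

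Growth-related SAUR genes, small auxin-up RNAs that promote cell expansion, were the list with the highest median in pif457 among the 30 drawn in the plot of list medians. Of 19 tested, 12 were higher and 7 lower in pif457, with a median of 0.34 (0.53 after centring), beside 0.31 in the PIF7-4xMYC line and 0.30 in wild type. None passed on deposited TPM, and SAUR20, SAUR21 and SAUR24 passed as raised after centring. SAUR20 (AT5G18020) had 12.4 and 15.4 TPM in pif457 after 30 min and 4.75 and 4.88 TPM in white light, against 23.8 and 19.3 TPM and 8.18 and 8.35 TPM in wild type. SAUR21 had 11.0 and 12.6 TPM in pif457 after 30 min and 6.23 and 3.17 TPM in white light, against 24.2 and 20.6 TPM and 8.63 and 8.15 TPM in wild type. The groups did not overlap in either genotype. For SAUR20 the log2 change was 1.35 in pif457 (SE 0.20, limma adjusted p = 0.141) and 1.28 in wild type, and the interaction was 0.07 (limma adjusted p = 0.94). With centred libraries the change in pif457 was 1.54 (limma adjusted p = 0.00138), with a range of 1.52e-05 to 0.425 over alternatives. SAUR19 to SAUR24 are near-identical neighbours, and the values for each single gene are uncertain where reads were shared among them.

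Hormone genes that answer shade in the PIF7-4xMYC line did not pass in pif457. Of 15 brassinosteroid genes, 0 passed in pif457 on either scale, 9 passed as raised in the PIF7-4xMYC line and 0 in wild type, with medians of -0.05 in pif457 (0.15 after centring), 0.67 in the PIF7-4xMYC line and 0.16 in wild type. BR6ox2, the oxidase of the last step of brassinolide synthesis, had 9.28 and 15.0 TPM in pif457 after 30 min and 14.0 and 14.2 TPM in white light, against 19.3 and 17.9 TPM and 12.2 and 13.3 TPM in wild type. In the PIF7-4xMYC line it stood at 41.3, 53.2 and 37.7 TPM after 30 min and at 6.91, 11.7 and 9.20 TPM in white light, and it rose (2.15, limma adjusted p = 6.3e-05). Its pif457 groups overlapped and did not pass (-0.23, limma adjusted p = 0.776). PRE1, a helix-loop-helix growth factor without a DNA-binding domain, had 3.51 and 4.11 TPM in pif457 after 30 min and 2.16 and 2.61 TPM in white light, against 12.0 and 14.0 TPM and 3.12 and 4.73 TPM in wild type, and did not pass in pif457 (limma adjusted p = 0.579).

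The other hormone lists lay near the median gene in pif457, with no member called on either scale. Medians were -0.02 for 21 Aux/IAA and GH3 genes of the early auxin response, -0.13 for 18 gibberellin genes, -0.13 for 15 cytokinin genes and -0.15 for 15 ethylene genes, against 0.21, 0.50, 0.23 and 0.26 for the same lists in the PIF7-4xMYC line and 0.15, 0.27, 0.26 and -0.01 in wild type. In the PIF7-4xMYC line 5, 6, 0 and 4 of their members passed as raised, and in wild type none. Among 21 cell wall loosening genes, 4 were higher and 17 lower in pif457, with a median of -0.25 (-0.05 after centring). Over all genes tested 5403 were higher and 18054 lower. After centring, 1 of the 21 passed as raised. EXPA1, an expansin that loosens the cell wall, had 269 and 391.7 TPM in pif457 after 30 min and 208 and 188 TPM in white light, against 423 and 472 TPM and 267 and 172 TPM in wild type. Its groups did not overlap in either genotype, and it did not pass (0.71 in pif457, limma adjusted p = 0.416, against 1.06 in wild type, limma adjusted p = 0.175).

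Light-harvesting antenna genes, which encode the chlorophyll-binding proteins of the photosystems, were all lower in pif457 after 30 min, as the median gene was. Of 17 tested, 17 had a negative log2 change, with a median of -0.48 in pif457 (-0.29 after centring), beside -0.11 in the PIF7-4xMYC line and -0.73 in wild type, and none passed in any of the 3 comparisons or after centring. LHCB1.2 had 1270 and 1568 TPM in pif457 after 30 min and 3364 and 2958 TPM in white light, against 2305 and 2079 TPM and 3954 and 4972 TPM in wild type. LHCB2.2 had 678 and 879 TPM in pif457 after 30 min and 1388 and 1338 TPM in white light, against 785 and 854 TPM and 1409 and 1838 TPM in wild type. For both genes the groups did not overlap in either genotype. The log2 changes of LHCB1.2 were -1.16 in pif457 (limma adjusted p = 0.17) and -1.02 in wild type (limma adjusted p = 0.123), with an interaction of -0.14 (limma adjusted p = 0.888). LHCB genes have near-identical copies, so the level of each single copy is uncertain.

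Of 24 clock genes, none passed in pif457 on deposited TPM, and GI and COL1 were among those that passed after centring, in opposite directions. By sign, 7 of the 24 were higher and 17 lower in pif457, with a median of -0.22 (-0.03 after centring), and after centring 2 passed as raised and 1 as lowered. Over all genes tested 5403 were higher and 18054 lower, so most genes had that sign. After centring 0.349% of all genes passed as raised and 0.365% as lowered. GIGANTEA (GI), an evening gene of the clock, had 3.05 and 6.33 TPM in pif457 after 30 min and 11.6 and 11.6 TPM in white light, against 8.61 and 6.64 TPM and 13.0 and 14.5 TPM in wild type. COL1, a CONSTANS-like gene, had 44.4 and 52.4 TPM in pif457 after 30 min and 32.0 and 33.3 TPM in white light, against 31.7 and 32.5 TPM and 26.6 and 24.9 TPM in wild type. GI passed as lowered after centring (-1.02, limma adjusted p = 0.0275, with a range of 0.000288 to 0.911 over alternatives) and COL1 as raised (0.74, limma adjusted p = 0.0222, range 0.0222 to 0.903).

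A pair of genes outside the lists, chosen after their values were seen, were lower after 30 min with no overlap in either genotype. PHS2, a cytosolic starch phosphorylase, had 29.7 and 47.9 TPM in pif457 after 30 min and 76.7 and 76.9 TPM in white light, against 45.2 and 41.8 TPM and 75.3 and 73.9 TPM in wild type. AT5G23240 had 9.77 and 18.0 TPM in pif457 after 30 min and 35.8 and 38.3 TPM in white light, against 15.6 and 15.9 TPM and 32.9 and 33.4 TPM in wild type. Neither passed in pif457 on deposited TPM, with log2 changes of -1.01 (limma adjusted p = 0.216) and -1.41 (limma adjusted p = 0.17).

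**Figure D4:**
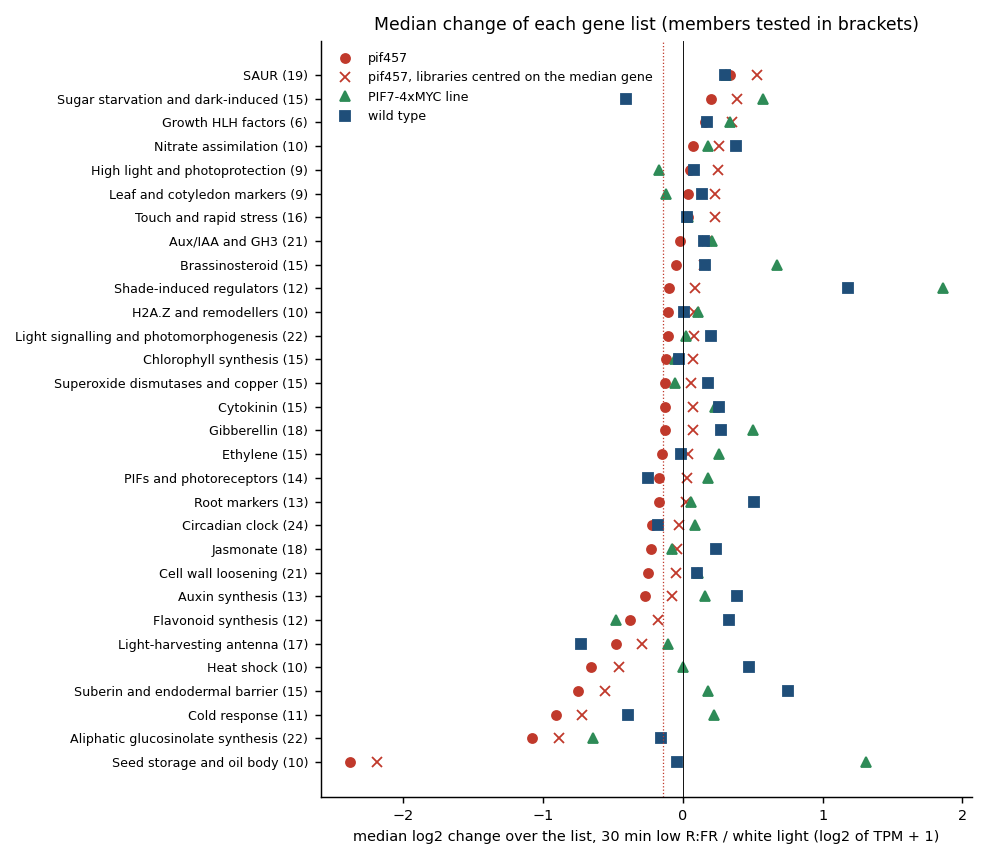
Median log2 change (on log2(TPM + 1)) after 30 min of low R:FR over each of 30 gene lists in pif457 (circles), in pif457 with libraries centred on the median gene (crosses), in the PIF7-4xMYC line (triangles) and in wild type (squares), with the number of members tested in brackets and the median of all genes in pif457 (-0.14) as a dotted line. Shade-induced regulators stand at -0.10 in pif457, 1.86 in the PIF7-4xMYC line and 1.18 in wild type, and the aliphatic glucosinolate list at -1.08, -0.64 and -0.16.

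Aliphatic glucosinolate genes, which make the methionine-derived defence compounds of the cabbage family, were low in pif457 after 30 min. The list was put together after values had been seen, so its direction is a description. Of 22 tested, 22 were lower in pif457, 10 at least 2-fold by the rule of size, and the median log2 change was -1.08 (-0.89 after centring), beside -0.64 in the PIF7-4xMYC line and -0.16 in wild type. None passed on deposited TPM, 7 passed as lowered after centring, 7 passed as lowered in the PIF7-4xMYC line and none in wild type. Over all genes tested 5403 were higher and 18054 lower in pif457, and 0.973% of eligible genes were lower by the rule of size. The shares of all genes that passed as lowered were 0.365% in pif457 after centring and 1.03% in the PIF7-4xMYC line. No gene of the list passed in the interaction.

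Members of the side-chain elongation cycle had the widest gaps. IMD1 (AT5G14200), an isopropylmalate dehydrogenase, had 3.76 and 3.38 TPM in pif457 after 30 min and 25.7 and 15.4 TPM in white light, against 24.7 and 22.4 TPM and 25.8 and 32.9 TPM in wild type. IPMI1 (AT3G58990), a subunit of isopropylmalate isomerase, had 3.07 and 1.72 TPM in pif457 after 30 min and 20.7 and 11.7 TPM in white light, against 12.2 and 13.1 TPM and 17.7 and 19.4 TPM in wild type. The pif457 libraries after 30 min lay below all other libraries of the table for both genes. The log2 change of IMD1 was -2.20 in pif457 (SE 0.25, limma adjusted p = 0.0787), and -2.01 after centring (limma adjusted p = 0.0143, with a range of 4.95e-16 to 0.253 over alternatives). IPMI1 differed by -2.32 in pif457 (SE 0.30, limma adjusted p = 0.104). In the PIF7-4xMYC line, IMD1 fell by 1.93 (limma adjusted p = 0.031) and IPMI1 fell by 1.87 (limma adjusted p = 0.00493).

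Genes of core structure formation were also low. CYP83A1, the cytochrome P450 that oxidises the aldoximes, had 3.77 and 2.35 TPM in pif457 after 30 min and 17.9 and 9.61 TPM in white light, against 16.2 and 13.1 TPM and 18.8 and 18.5 TPM in wild type. SOT18, a sulfotransferase of the last core step, had 7.12 and 7.20 TPM in pif457 after 30 min and 19.8 and 17.65 TPM in white light, against 19.8 and 19.7 TPM and 17.8 and 17.0 TPM in wild type. AKN2, an adenosine-phosphosulfate kinase that feeds the sulfate donor, had 13.8 and 17.0 TPM in pif457 after 30 min and 37.3 and 29.0 TPM in white light, against 42.2 and 33.4 TPM and 39.5 and 42.9 TPM in wild type. Each of the 3 was lower in both pif457 libraries after 30 min than in every other library. Of the transcription factors of the pathway, MYB29 had 3.84 and 3.53 TPM in pif457 after 30 min and 9.14 and 7.76 TPM in white light, and MYB28 had 44.5 and 65.6 TPM and 72.7 and 65.4 TPM, which overlapped.

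Superoxide dismutases, the enzymes that remove superoxide with iron or copper and zinc at the active site, lay in opposite directions in pif457. FSD1 (AT4G25100), the iron form, had 358 and 521 TPM in pif457 after 30 min and 130 and 126 TPM in white light, against 108 and 87.1 TPM and 194 and 173 TPM in wild type. In pif457 the 30 min libraries lay above, and in wild type below, their white light libraries, with no overlap in either. The log2 change of FSD1 was 1.75 in pif457 (SE 0.19, limma adjusted p = 0.0737) and 1.94 after centring (limma adjusted p = 9.55e-05, with a range of 6.45e-17 to 0.275), against -0.91 in wild type (limma adjusted p = 0.149). Its interaction of 2.65 (SE 0.27) passed with a limma adjusted p of 0.0327. That call held without pif457 30 min replicate 2 and was lost without each of the others: pif457 30 min replicate 1 (2.93), pif457 white light replicate 1 (2.68) or 2 (2.63), wild type 30 min replicate 1 (2.81) or 2 (2.50), and wild type white light replicate 1 (2.57) or 2 (2.74).

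CSD1, the cytosolic copper and zinc form, had 172 and 194 TPM in pif457 after 30 min and 347 and 345 TPM in white light, against 445 and 378 TPM and 345 and 314 TPM in wild type. CSD2, the plastid copper and zinc form, had 481 and 565 TPM in pif457 after 30 min and 989 and 976 TPM in white light, against 1083 and 1105 TPM and 1034 and 756 TPM in wild type. CCS, the chaperone that loads copper into both, had 96.9 and 130 TPM in pif457 after 30 min and 188 and 184 TPM in white light, against 192 and 186 TPM and 172 and 141 TPM in wild type. For all 3 genes the pif457 libraries after 30 min were the lowest of the table. YSL2, a transporter of metals bound to nicotianamine, had 14.5 and 20.8 TPM in pif457 after 30 min and 5.70 and 5.77 TPM in white light, and 4.66 to 4.96 TPM in the 4 wild-type libraries.

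None of these 4 passed on deposited TPM. CSD1 differed by -0.92 (limma adjusted p = 0.141) and YSL2 by 1.45 (limma adjusted p = 0.155). Of the 15 genes of the superoxide dismutase and copper list, put together after values had been seen, 3 passed as raised after centring (FSD1, YSL2 and the copper chaperone CCH) and 2 as lowered (CSD1 and CCS). Over all genes tested 0.349% passed as raised and 0.365% as lowered after centring. SPL7, the regulator of the copper deficiency response, had 10.1 and 16.5 TPM in pif457 after 30 min and 15.2 and 14.6 TPM in white light, which overlapped.

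**Figure D5:**
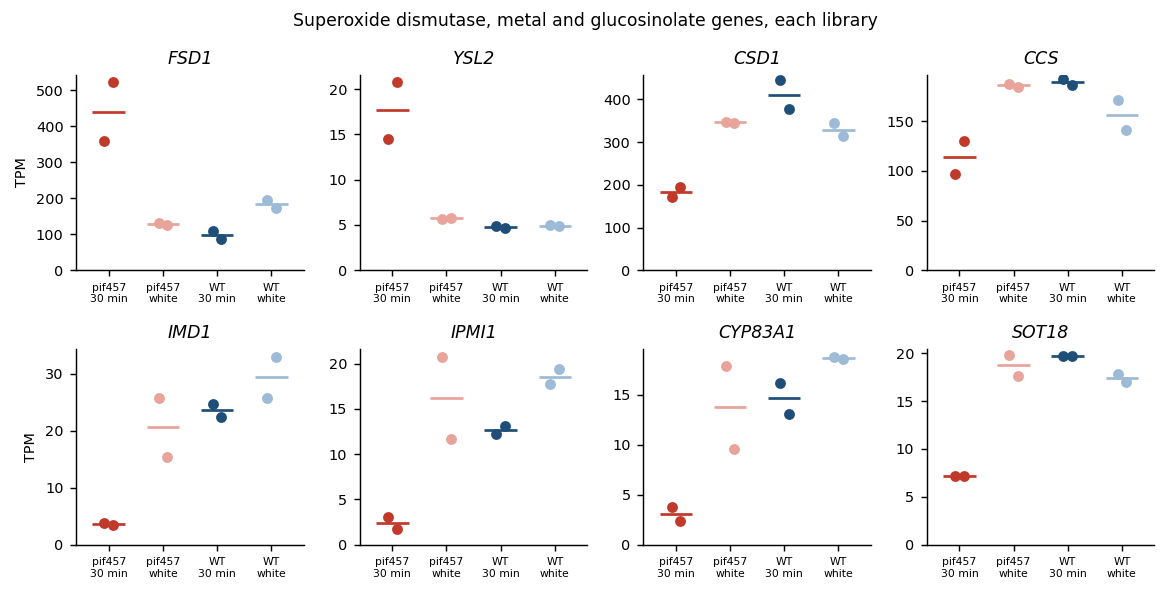
TPM of 4 superoxide dismutase and metal genes (top) and 4 aliphatic glucosinolate genes (bottom) in each library (points) with the mean of each group (lines). After 30 min, pif457 has the 2 highest libraries for FSD1 and YSL2 and the 2 lowest for CSD1, CCS, IMD1, IPMI1, CYP83A1 and SOT18.

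Nitrate genes lay in both directions. Of 10 nitrate assimilation genes, 6 were higher and 4 lower in pif457, with a median of 0.07 (0.26 after centring), and UPM1 passed as raised after centring. NIA1, a nitrate reductase, had 367 and 610 TPM in pif457 after 30 min and 167 and 189 TPM in white light, against 415 and 322 TPM and 149 and 375 TPM in wild type. UPM1, which makes the sirohaem of nitrite reductase, had 134 and 192 TPM in pif457 after 30 min and 97.9 and 99.2 TPM in white light, against 225 and 194 TPM and 114 and 132 TPM in wild type. The pif457 groups did not overlap for either gene, and the wild-type groups overlapped for NIA1. NRT1.1, a nitrate transporter, had 42.3 and 47.8 TPM in pif457 after 30 min and 85.9 and 82.9 TPM in white light, and it did not pass (-0.89, limma adjusted p = 0.234). In wild type NRT1.1 overlapped, at 93.7 and 64.4 TPM after 30 min and 86.4 and 73.0 TPM in white light.

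Genes of suberin, the lipid and phenolic barrier of root endodermis and periderm, had negative log2 changes in pif457 and a positive median in wild type, beside the root marker sums given above, and few passed on any scale. This list too was put together after values had been seen. Of 15 tested, 15 were lower in pif457, with a median of -0.75 (-0.56 after centring), beside 0.18 in the PIF7-4xMYC line and 0.75 in wild type. None passed on deposited TPM in pif457 or in wild type, 2 passed as lowered in pif457 after centring, and by the rule of size 1 was lower in pif457 and 1 higher in wild type. Over all genes tested 5403 were higher and 18054 lower in pif457, and 0.365% passed as lowered after centring. By the rule of size 0.973% of eligible genes were lower in pif457 and 1.58% higher in wild type. CYP86A1, a fatty acid hydroxylase of root suberin, had 1.17 and 2.50 TPM in pif457 after 30 min and 5.86 and 7.75 TPM in white light, against 15.2 and 9.11 TPM and 6.77 and 5.70 TPM in wild type. The summed suberin list stood at 14.2 and 31.0 TPM in pif457 after 30 min and 38.9 and 55.5 TPM in white light, against 120.3 and 91.3 TPM and 59.6 and 54.6 TPM in wild type.

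EXT3, an extensin of the cell wall, had 113 and 181 TPM in pif457 after 30 min and 280 and 306 TPM in white light, against 641 and 581 TPM and 277 and 251 TPM in wild type. Its groups did not overlap in either genotype, and the order was opposite. The interaction for EXT3 was -2.23 (limma adjusted p = 0.0718), and -1.97 with centred libraries (limma adjusted p = 0.00171, with a range of 1.24e-14 to 0.348). In each genotype the lowest root marker sum belonged to a group with lower EXT3 and suberin values, and the part of root content in these results was not tested.

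Cold and heat genes had mostly negative log2 changes in pif457, as the median gene had. KIN1, a cold-induced gene, had 3.49 and 3.26 TPM in pif457 after 30 min and 12.1 and 9.37 TPM in white light, against 7.72 and 3.51 TPM and 5.24 and 5.16 TPM in wild type. Of 11 cold response genes, 10 were lower in pif457, with a median of -0.91 (-0.72 after centring), beside 0.22 in the PIF7-4xMYC line and -0.39 in wild type, and none passed in pif457. HSP17.4, a small heat shock protein gene, had 1.03 and 0.20 TPM in pif457 after 30 min and 17.5 and 7.37 TPM in white light, against 1.43 and 2.68 TPM and 0.41 and 0.86 TPM in wild type. Its high values were those of pif457 in white light, and it passed as lowered after centring (-2.80, limma adjusted p = 0.0304, with a range of 3.74e-21 to 0.332). The heat shock list as a whole had a median of -0.66 in pif457 (-0.46 after centring), 0.00 in the PIF7-4xMYC line and 0.47 in wild type, over 10 genes.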

How the data were processed

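The deposited TPM of the authors were used, 33602 gene models per library with rRNA and organellar genes included. The named tools are Bowtie2 2.1.0 (ChIP), RSEM 1.3.0 and STAR 2.6.0c (RNA-seq), with build TAIR10, per the submitters' processing notes. The deposited lists of PIF7 events, made by GEM per the deposited file description, give the authors' IP signal, fold over control and -log10 q. TPM keep no read depth, so depth per library is unknown and no counting interval can be given. Unmapped value columns numbered 0.

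Genes at 0 in every library were left out, and log2(TPM + 1) was fitted with limma 3.58.1 in R 4.3.3, with an expression trend, all 8 libraries of the table in 1 fit (4 residual degrees of freedom) and p-values adjusted over all 24384 genes (Benjamini-Hochberg, called under 0.05). The PIF7-4xMYC table had its own fit, on all its libraries, including those after shorter times of low R:FR. Variances are moderated across genes, and a p-value therefore depends partly on other genes. Fold changes on this scale understate those of low genes. The fit was run on simulated data to check that it returned known mean fold changes. Those data had independent noise and no shift across a whole library, so they do not test the scaling. Nothing in the labels ties libraries of the same number to a shared culture or batch, and the main fit has no replicate block. Alternatives were the pseudocount, a filter on low TPM, 2 scalings, the block, other thresholds, the compared groups alone, no trend, and leaving out each library.

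The comparison, defined by the labels of its libraries, and the 26 gene lists (381 genes) were chosen with earlier results of these data known. The 4 added lists, the rule of size, the crossed pairing and 19 single genes were chosen after seeing the data. Named genes are those called in pif457 or the interaction, those of smallest p in each direction and each list, the strongest in wild type, and fixed genes. RefSeq names (TAIR10.1) matched 24119 of the tested models. Each event went to the closest protein-coding gene (27444 considered) within 3 kb, on TAIR10.1, which is not the build named by the authors, whose nuclear positions it was taken to share. Python 3.11.15, numpy 2.4.6, pandas 2.3.3 and matplotlib 3.10.9 were used.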

Additional observations from a re-analysis of the deposited data

Results flagged for a closer look

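No group has 4 or more libraries, so single libraries were not checked against their group by this means. The response to light differed between pif457 and wild type, by the limma interaction test, for 10 genes, and each value is the log2 change in pif457 minus that in wild type. Shade genes gave the widest negative differences: ATHB4 with -4.29, YUC9 with -3.93 and YUC5 with -3.15. FSD1 gave 2.65.

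AT3G41761 gave 4.09, and its call held without pif457 30 min replicate 2 but was lost without pif457 30 min replicate 1 (3.75), pif457 white light replicate 1 (4.09) or 2 (4.09), wild type 30 min replicate 1 (4.00) or 2 (4.19), or wild type white light replicate 1 (4.28) or 2 (3.90). MIR848 gave -1.03 and was at 0 in every wild-type library. AT1G71000 gave -1.68, with 0 in both pif457 libraries after 30 min and 0.49 and 0.88 TPM in pif457 in white light, against 1.16 and 1.46 TPM and 0.27 and 0.14 TPM in wild type. MYB54, a MYB transcription factor gene, gave -1.48, with 0.05 and 0.11 TPM in pif457 after 30 min and 0.90 and 0.72 TPM in white light, against 1.48 and 1.2 TPM and 0.48 and 0.32 TPM in wild type. AT2G17070 gave -1.2, with 0 in both pif457 libraries after 30 min and 0.09 and 0.08 TPM in white light, against 1.65 and 1.5 TPM and 0.29 and 0.15 TPM in wild type. AT1G67760 gave -1.16, with 0.20 and 0.21 TPM in pif457 after 30 min and 1.04 and 1.04 TPM in white light, against 0.64 and 0.59 TPM and 0.26 and 0.18 TPM in wild type. The last 5 of these genes were below 2 TPM in every library, where a few reads decide a value.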

How the results depend on the processing

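In pif457 the count of 3 became 10 at an adjusted p under 0.10, 174 with centred libraries, 141 with the compared groups alone, 593 after a filter at 1 TPM, 0 with no expression trend in limma (against 2293 genes at an unadjusted p under 0.05 with the trend), 21 with a pseudocount of 0.1 and 20 with rRNA and organellar genes removed, and 15 to 5511 when each library was left out. The genes called with a pseudocount of 5 numbered 2, at 2-fold 2, and with the replicate block 3. With the numbers of the pif457 30 min libraries crossed, since same-number pif457 libraries deviated in opposite directions (r = -0.26), the count was 4. Over the 6 pairings of groups in the table, same-number libraries gave r between -0.26 and 0.37, the highest being that of pif457 and wild type in white light. In wild type the count of 29 became 18 at 2-fold, 90 at 0.10, 378 centred, 3 alone, 619 at 1 TPM, 4 with no trend, 13 and 88 with pseudocounts of 0.1 and 5, 54 without rRNA and organellar genes, 19 with the replicate block, and 19 to 35 leaving out a library, and the call for HAT3 was lost with the block (1.28). For the interaction, 10 became 51 at 0.10, 197 centred, 806 at 1 TPM, 3 with no trend, 5 with a pseudocount of 0.1, and 7 to 3145 leaving out a library, and 9 with the replicate block. In the PIF7-4xMYC line, 1188 became 170 at 2-fold, 2131 at 0.10, 423 alone, 497 to 1548 leaving out a library and 842 with the replicate block. By the rule of size, 30 higher became 50 centred and 33 to 49 leaving out a library, and 142 lower became 86 centred and 101 to 403. Without each wild-type library in turn, most of the 29 wild-type genes were not called again, and some of the genes called were lower. A similar count there does not mean the same genes. With the replicate block the wild-type calls for HFR1 (1.72) and AT5G66580 (1.78) were lost as well as that for HAT3. With a pseudocount of 0.1 those for PIL1 (2.97) and HFR1 (1.86) were lost. The cause of these differences between settings was not tested.

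Of the single genes in pif457, 31 values changed sign, none of a gene that passed. Leaving out a library gave ranges of -0.81 to 0.14 for PIF3, -0.59 to 0.28 for PIF7, -0.42 to 0.01 for FHL, -0.29 to 0.10 for IAA19, -0.06 to 0.76 for IAA29, -0.19 to 0.31 for GH3.3, -0.49 to 0.22 for XTH15, -0.66 to 0.34 for BRI1, -0.52 to 0.15 for CCA1, -0.12 to 0.32 for HY5, -0.67 to 0.03 for PHYC, -0.50 to 0.01 for IAA9, -0.56 to 0.09 for BR6ox2, -0.0091 to 0.32 for BKI1, -0.07 to 0.56 for PRE6, -0.02 to 0.68 for bZIP1, -0.0018 to 0.76 for DIN10, -0.74 to 0.12 for PIE1, -0.41 to 0.05 for RIN1 and -0.94 to 0.27 for INO80. Centring gave 0.04 for PIF7, 0.10 for IAA19, 0.05 for XTH15, 0.03 for BRI1, 0.0085 for CCA1, 0.0025 for KMD4, 0.01 for RIN1 and 0.02 for PLT2, and removal of rRNA and organellar genes 0.0054 for IAA19. Of the other values of single genes in pif457, 1625 kept their direction and side of the threshold, 166 came to pass and 8 ceased to pass.

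With 2 libraries a group and 4 residual degrees of freedom, the standard error of a log2 change had a median of 0.21, and genes with far larger changes did not pass on deposited TPM, such as ATHB2 (1.92). TPM keep no depth. The genes called in pif457 are not protein-coding, so no PIF7 event could be assigned to them under any list or distance. No genome was used here, so promoter motifs were not searched.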

Other observations

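Seed storage and oil body genes separated the pif457 white light libraries. Their sum over 10 genes was 36.3 and 19.7 TPM in pif457 after 30 min and 76.3 and 313.9 TPM in pif457 in white light, against 18.9 and 13.6 TPM and 23.5 and 11.4 TPM in wild type. SESA3, a 2S albumin gene, had 0 and 0.09 TPM in pif457 after 30 min and 4.33 and 48.0 TPM in white light, and CRU3, a cruciferin gene, had 1.03 and 0.17 TPM and 5.39 and 70.5 TPM. The values of replicate 2 of pif457 in white light were the highest of the 8 libraries for both. The list was put together after values had been seen, and no member passed in pif457 on either scale.

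Genes induced by sugar starvation and darkness had a median log2 change of 0.20 in pif457 (0.39 after centring), beside 0.57 in the PIF7-4xMYC line and -0.41 in wild type, over 15 genes, none of which passed in pif457. DIN10, a dark-induced gene, had 136 and 231 TPM in pif457 after 30 min and 122 and 152 TPM in white light, against 136 and 155 TPM and 141 and 284 TPM in wild type. The groups overlapped in both genotypes.

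Flavonoid genes had a median of -0.38 in pif457 (-0.18 after centring), beside -0.48 in the PIF7-4xMYC line, where 4 of the 12 fell, and 0.33 in wild type. CHS, the first enzyme of the pathway, had 185 and 141 TPM in pif457 after 30 min and 207 and 265 TPM in white light, against 126 and 112 TPM and 119 and 81.0 TPM in wild type. It did not pass in pif457 (-0.53, limma adjusted p = 0.511).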
